A study of Mus musculus with 4 samples.

Results

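Genes of the epithelial to mesenchymal transition (EMT) were measured by RNA sequencing in 4 libraries of cultured mouse alveolar type II cells, the surfactant-making epithelial cells of the lung alveolus. The 10 genes were taken by name from the 28096 genes of each library's table: the EMT transcription factor genes Snai1, Snai2, Zeb1, Zeb2 and Twist1, the mesenchymal structural genes Vim and Cdh2, and on the epithelial side the splicing regulator genes Esrp1 and Esrp2 and the transcription factor gene Ovol1. All 10 were found, 7 mesenchymal and 3 epithelial. The cells had been sorted from lung as EpCAM-positive cells lacking CD24, CD45, CD31 and podoplanin, then grown in matrigel and BEGM medium, with 100 nM 4-hydroxytamoxifen (4OHT) for 4 days and without it for 1 day. All 4 libraries carry the genotype label KRasEtv wt. The design text lists 3 genotypes with 4 mice each, which all share the KRaswt/d12 and RosaCreERT2 alleles and differ in whether they also carry Etv5loxp/loxp or Etv4KO/KO with Etv5loxp/loxp. Which of them the label names is not stated. RosaCreERT2 places the tamoxifen-activated Cre recombinase under a broadly active promoter, so any cell type in the culture could recombine. Age and sex of the mice are not given (sex is read from Xist and Eif2s3y below). The labels do not tie a library to a mouse, so the spread between libraries may in part be technical.

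In EMT, epithelial cells lose cell junctions and gain migratory, fibroblast-like properties. The SNAI and ZEB proteins are zinc-finger repressors that bind E-box sequences in genes such as Cdh1, and TWIST1 is a basic helix-loop-helix factor of the same programme. The ESRP proteins keep the epithelial splice forms of genes such as Fgfr2 and Cd44, the OVOL proteins repress Zeb1 and related genes, and ZEB factors in turn repress Esrp1. Adult alveolar type II cells are epithelial, and mesenchymal genes in the lung are expressed chiefly by fibroblasts, smooth muscle, endothelium and leukocytes.

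Libraries 1 to 4, named in accession order, held between 12133251 and 13591876 counted reads, and log2 levels correlated across genes with Pearson's r of 0.977 to 0.984 over the 6 library pairs. All 8 type II markers examined were present, with the surfactant gene Sftpc at 10006 ± 3649 size-factor-adjusted RPKM (nRPKM, the deposited level per gene length; SD, n = 4). A pair of libraries stood apart. Library 3 had 66.3 nRPKM of Xist against 0.255 to 0.784 in the others and 0.243 of the Y-linked Eif2s3y against 14.6 to 23.2. By these genes library 3 read as female and the others as male. For results that rest on library 3, sex and its other traits cannot be told apart. Library 1 had the lowest summed level of the type II markers. Values without library 1 or library 3 are given beside some of the results that rest on them. Mitochondrial ribosomal RNA took 19.6% to 38.9% of the counts.

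The epithelial splicing regulators were the highest of the 10 genes. Esrp1 (Entrez 207920) was counted in 1627 to 2859 reads per library, and its level in libraries 1 to 4 was 23.1, 23.7, 35.3 and 29.8 nRPKM. Its mean of 28.0 ± 5.76 (SD, n = 4) lay above that of 95.6% of all genes. Esrp2 (77411), its paralog, had 19.0, 24.1, 23.1 and 17.1 nRPKM in the same order and a mean of 20.8 ± 3.33, above 93.6% of genes. Both were present at similar levels in every library, with no library outside a 1.53-fold range for Esrp1 or a 1.41-fold range for Esrp2. Esrp1 exceeded Esrp2 in 3 of 4 libraries, and the ratio ran from 0.984 in library 2 to 1.74 in library 4. The log2 difference was 0.40 ± 0.35, with p = 0.25 (adjusted p = 0.25 over 8 pairs) by exact sign-flip permutation, two-sided, in a design of 4 libraries whose smallest possible p is 0.13. In CPM, without length correction, the difference was 0.94 ± 0.36 (exact permutation p = 0.13). Of the 50-base words of the Esrp2 transcript, 6.94% also occur in other genes, chiefly Nfatc3, which overlaps it on the opposite strand. Strand use in counting is not stated, so reads in that overlap cannot be assigned.

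Ovol1 was far lower than the splicing regulators. Ovol1 (18426) had 0.677, 0.408, 0.692 and 0.550 nRPKM in libraries 1 to 4, on 40, 21, 42 and 26 reads, with a mean of 0.582 ± 0.132 (SD, n = 4). The exact 95% Poisson intervals of the lowest and highest library, 0.253 to 0.624 and 0.499 to 0.935, overlap in part. Overlap of separate intervals is not a test of a difference between these libraries. Such intervals cover counting error only, not variation between libraries. PCR copies were not marked, so the intervals may be too narrow even for counting error. Ovol2, a paralog with a related repressor role, had 1.09 ± 0.441 nRPKM and exceeded Ovol1 in all 4 libraries by 0.38 ± 0.24 on the log2 scale (exact permutation p = 0.13, the smallest that 4 libraries allow, adjusted p = 0.143). This order rests on the correction for gene length: in CPM the difference was -0.04. Overlapping or copied sequence touches both genes, with 23.0% of the words of Ovol1 and 12.6% of those of Ovol2 shared with other genes.

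Vimentin was the only mesenchymal gene of the set at 1 nRPKM or more in every library. Vim (22352), which encodes the intermediate filament of mesenchymal cells, had 19.8, 11.1, 4.74 and 8.36 nRPKM in libraries 1 to 4, with 740, 363, 182 and 250 reads. Library 1 was highest and library 3 lowest, a 4.18-fold range, and the Poisson intervals of those libraries (18.4 to 21.3 and 4.08 to 5.48) lay far apart. The mean was 11.01 ± 6.42 (SD, n = 4), or 8.08 without library 1 and 13.1 without library 3. Vim made up 80.0% to 84.1% of the summed level of the 7 mesenchymal genes in each library.

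N-cadherin RNA was scarce. Cdh2 (12558), the cadherin that mesenchymal cells carry in place of E-cadherin, had 0.169, 0.279, 0.0514 and 0.211 nRPKM on 16, 23, 5 and 16 reads, with a mean of 0.178 ± 0.0955 (SD, n = 4). Its paralog Cdh1, the gene of E-cadherin, had 147 ± 15.97 nRPKM (SD, n = 4), and the ratio of Cdh1 to Cdh2 ran from 503 in library 2 to 3299 in library 3. Cdh1 lay above Cdh2 in 4 of 4 libraries with a log2 difference of 6.97 ± 0.26 (exact permutation p = 0.13, adjusted p = 0.143). Among 7 classical cadherin genes other than Cdh2, 3 had a mean of at least 1 nRPKM, a share near the 42.4% of all genes. These 3 were Cdh1, Cdh11 at 1.53 ± 0.981 and Cdh3 at 1.30 ± 0.252.

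The 5 EMT factor genes all had mean levels below 1 nRPKM. Snai2 (20583) had 1.66, 0.979, 0.332 and 0.487 nRPKM in libraries 1 to 4 on 68, 35, 14 and 16 reads. Snai1 (20613) had 0.803, 0.319, 0.120 and 0.154 on 26, 9, 4 and 4 reads. Library 1 was highest and library 3 lowest for each of these SNAI genes, though libraries 3 and 4 held equal reads of Snai1 and are not told apart. For Snai1 the Poisson interval of library 1, 0.524 to 1.18, lay above that of library 3, 0.0328 to 0.308. The means were 0.864 ± 0.596 for Snai2 and 0.349 ± 0.315 for Snai1 (SD, n = 4), and leaving out library 1 took that of Snai1 to 0.198. Snai2 exceeded Snai1 in 4 of 4 libraries by 2.06 to 3.16 times, with the ratio taken on nRPKM. On the log2(nRPKM + 1) scale the difference was 0.44 ± 0.16 (exact permutation p = 0.13, adjusted p = 0.143), and with a pseudocount of 0.1 it was 1.13 ± 0.20.

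The ZEB genes showed the same extremes. Zeb2 (24136) had 1.19, 0.983, 0.283 and 0.747 nRPKM in libraries 1 to 4 on 221, 159, 54 and 111 reads, and its mean was 0.801 ± 0.390 (SD, n = 4). Zeb1 (21417) had 0.827, 0.162, 0.110 and 0.459 on 88, 15, 12 and 39 reads, with a mean of 0.389 ± 0.330, or 0.243 without library 1. Library 1 was again highest and library 3 lowest for each, but library 2 was near the top for Zeb2 and near the bottom for Zeb1. The ratio of Zeb2 to Zeb1 was 6.07 in library 2 and 1.44 to 2.58 in the others. Zeb2 lay above Zeb1 in 4 of 4 libraries, with a difference of 0.38 ± 0.26 on the log2(nRPKM + 1) scale (exact permutation p = 0.13, adjusted p = 0.143), or 0.24 without library 2. With a pseudocount of 0.1 it was 0.998 ± 0.72, and 1.63 ± 0.69 in CPM. Zeb2 overlaps the antisense gene Zeb2os, for which 0 to 4 reads were counted.

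Twist1 (22160) was not detected beyond a single read. No read was counted in libraries 1 to 3 and 1 read in library 4. A count of 0 allows up to 3 reads, which for Twist1 is 0.0903, 0.104 and 0.0879 nRPKM in libraries 1 to 3. All 4 libraries were at or below this floor, so no fold against Twist1 is given.

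Ordered by mean level, the genes ran from Esrp1 through Esrp2, Vim, Snai2, Zeb2, Ovol1, Zeb1, Snai1 and Cdh2 to Twist1. Vim lay above Snai2 by 10.2 ± 5.83 nRPKM with no overlap of their ranges over the 4 libraries. The ranges of the other neighbours overlapped, except that Cdh2 lay above the values of Twist1, but the floor of Twist1 in library 3, 0.0879 nRPKM, reaches above Cdh2 there at 0.0514, so this pair is not told apart. Esrp2 was above Vim in 3 of 4 libraries, because Vim at 19.8 nRPKM passed Esrp2 at 19.0 in library 1. Of the 10 genes, 3 (Esrp1, Esrp2 and Vim) had at least 1 nRPKM in every library, as did 38.8% of all genes, and 5 stayed below 1 in all 4, as did 54.6% of all genes. The median of the 10 means was 0.691 nRPKM, against 0.345 over all genes.

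**Figure D1:**
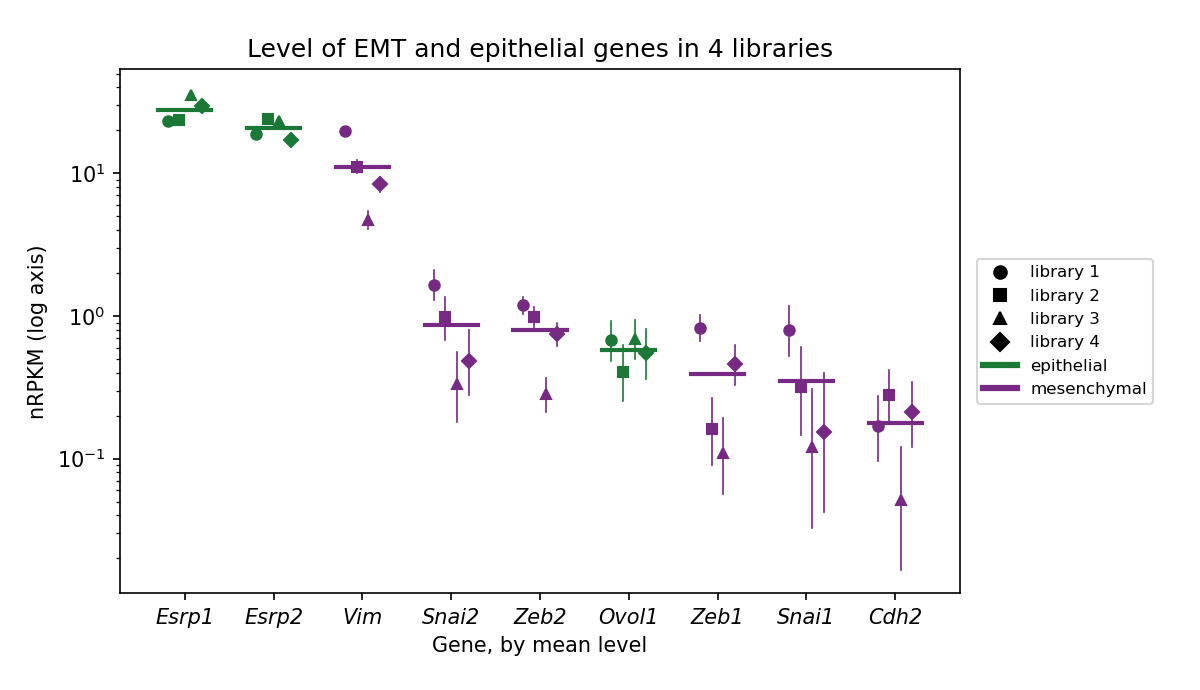
Level (nRPKM, log axis) of 9 genes in each of the 4 libraries, with exact 95% Poisson intervals as vertical lines and the mean as a horizontal bar, green for epithelial and purple for mesenchymal genes. Esrp1 and Esrp2 lie between 17.1 and 35.3 nRPKM, Vim spreads from 4.74 to 19.8, and the rest lie below 2; Twist1, with at most 1 read, is not drawn.

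Promoter sequence is shown for a pair of genes whose nRPKM had its maximum in library 1 and its minimum in library 3. They are Snai1, with the E-box bound by SNAI and ZEB proteins, and Vim, the highest mesenchymal gene. For Snai1, library 4 held as few reads as library 3. RefSeq promoter windows were found for 4 of the 10 genes (Snai1, Zeb2, Twist1 and Vim), and the 250 bases before the start site were searched for CACCTG and its reverse complement CAGGTG, that is, on both strands. The letters printed in capitals are the match, and Vim has none.
Snai1 (GRCm38.p6, chr2:167537945-167538194, plus strand): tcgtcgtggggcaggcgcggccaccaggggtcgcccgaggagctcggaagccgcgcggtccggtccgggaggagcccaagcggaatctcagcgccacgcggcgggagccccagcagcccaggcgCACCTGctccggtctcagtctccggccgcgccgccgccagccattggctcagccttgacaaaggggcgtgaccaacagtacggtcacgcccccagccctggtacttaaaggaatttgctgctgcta
Vim (GRCm38.p6, chr2:13574061-13574310, plus strand): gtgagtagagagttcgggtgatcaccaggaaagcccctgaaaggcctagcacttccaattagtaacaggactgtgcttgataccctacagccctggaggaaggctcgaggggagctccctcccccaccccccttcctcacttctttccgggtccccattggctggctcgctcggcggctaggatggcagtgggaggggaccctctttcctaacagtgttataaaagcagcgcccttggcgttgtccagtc

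Snai1 held 1 match, which starts 126 bases before the start site. No match was found in the windows of Vim and Twist1 or in those of the 4 annotated starts of Zeb2. Of all 32851 windows of this length, 17.2% hold the motif. A match describes these letters only; binding was not measured here.

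Within every library, the epithelial genes had the higher mean on the log2(nRPKM + 1) scale, which understates differences between low genes. The difference of the 3 epithelial and the 7 mesenchymal genes was 1.95, 2.32, 2.98 and 2.44 in libraries 1 to 4. It was smallest in library 1 and greatest in library 3. With only Esrp1, Esrp2 and Vim, the genes at 1 nRPKM or more in every library, it was 0.078, 1.04, 2.37 and 1.33, a mean of 1.20 ± 0.94. Of the 21 combinations of an epithelial with a mesenchymal gene, the epithelial gene was higher in 15, 18, 20 and 19. The combinations that went the other way in library 1 were Ovol1 below Snai1, Snai2, Zeb1, Zeb2 and Vim, and Esrp2 below Vim. In library 3 only Ovol1 below Vim remained. Because the genes were chosen with results of these data known, these scores carry no test.

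Single genes with opposed roles were farthest apart in library 3. Esrp1 exceeded Zeb1, its known repressor, by 27.9, 147, 322 and 65.0 times in libraries 1 to 4, and the log2 difference was 4.39 ± 0.54. Esrp1 exceeded Vim by 1.17, 2.13, 7.46 and 3.56 times, with a log2 difference of 1.40 ± 1.04. Krt8, a keratin of simple epithelium and thus the epithelial counterpart of Vim, had 31.9 ± 11.8 nRPKM and exceeded Vim by 2.08, 1.81, 9.07 and 2.78 times (log2 difference 1.53 ± 0.96). Each of these 3 differences had the same sign in each library (exact permutation p = 0.13, adjusted p = 0.143). The genes of these pairs were also chosen with results of these data known, so these p-values only describe the shared sign. The mean difference of Esrp1 and Vim was 1.80 without library 1 and 0.98 without library 3, and that of Krt8 and Vim was 1.71 and 1.07. Krt8 shares 29.7% of its words with other genes, among them a pseudogene.

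**Figure D2:**
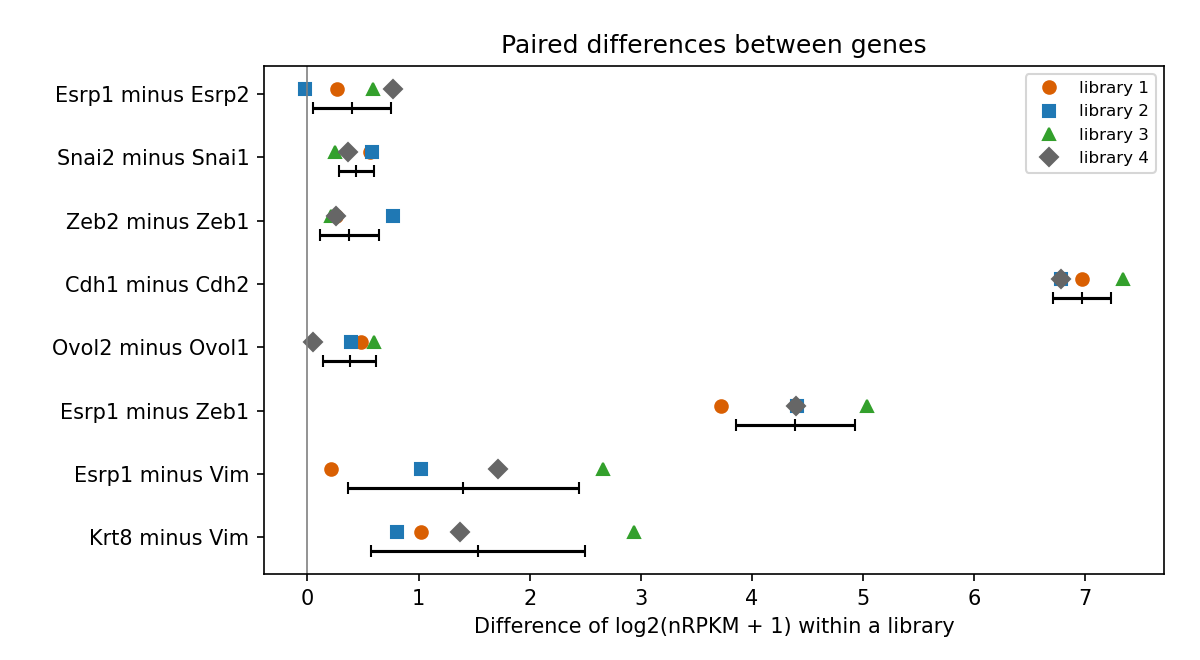
Differences of log2(nRPKM + 1) between 2 genes of the same library for 8 pairs; symbols are the 4 libraries and the black bar below them is the mean ± SD. Library 3 is farthest right and library 1 farthest left for Esrp1 minus Zeb1 and Esrp1 minus Vim, and Esrp1 minus Esrp2 is the pair with a library below 0.

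Most of the mesenchymal genes shared their extremes across the libraries. In nRPKM, Snai1, Snai2, Zeb1, Zeb2 and Vim each had their maximum in library 1 and their minimum in library 3. Cdh2 peaked in library 2 and also had its minimum in library 3, and none of the 3 epithelial genes had the extremes of Vim. For Snai1, Snai2 and Zeb1 the lowest library is not told apart from the next. Snai1 had 4 reads in libraries 3 and 4 alike. Snai2 had 14 reads in library 3 and 16 in library 4, and Zeb1 had 12 in library 3 and 15 in library 2. Highest-to-lowest ratios were 4.18 to 7.53 for Snai2, Zeb1, Zeb2 and Vim and 1.41 to 1.70 for the epithelial genes. The median was 1.61 over the 13156 genes with enough reads in all libraries, of which 5.70% had a ratio above 3. Zeb1 and Snai2 fell to 12 and 14 reads, where counting error can widen such a ratio. Snai1 and Cdh2 had ratios of 6.68 and 5.425 on as few as 4 and 5 reads and are not among the 13156. Of the 13156 genes, 7.29% had their maximum in library 1 and their minimum in library 3. Of the 7 members among them, 4 (Snai2, Zeb1, Zeb2 and Vim) had that order. Snai1, Cdh2 and Twist1 had too few reads to enter that comparison. The order was described after the values were seen.

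Spread between libraries was then tested per gene on the counts with an intercept model in edgeR, by quasi-dispersion over its trend with Benjamini-Hochberg adjustment over all genes. None of the 7 genes tested was called, beside 0.0152% of all 13156 genes (Xist and Tsix). Unadjusted p in this edgeR test was 0.00545 for Vim, 0.00671 for Zeb1, 0.0185 for Zeb2 and 0.0271 for Snai2, and the adjusted p was 0.607, 0.684, 0.806 and 0.858. Unadjusted p was under 0.05 for these 4 of 7, beside 5.13% of all genes. The other 3 tested genes were the epithelial ones, with an unadjusted p of 0.450 for Esrp1, 0.558 for Esrp2 and 0.656 for Ovol1 in the same edgeR test. The difference in spread between the epithelial and mesenchymal genes was not itself tested. Without library 3, 2 of 8 genes kept an unadjusted p under 0.05 (Vim and Zeb1), and without library 1, 3 of 7 did (Vim, Zeb1 and Zeb2), beside 4.63% and 5.12% of all genes. Without library 2 or library 4 the count was 4 of 7, beside 4.81% and 5.19% of all genes. DESeq2 marked none of the 7 as a dispersion outlier, beside 0.471% of all genes, and without the filter on low counts edgeR called none of the 10 at an adjusted p under 0.05, beside 0.321%.

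**Figure D3:**
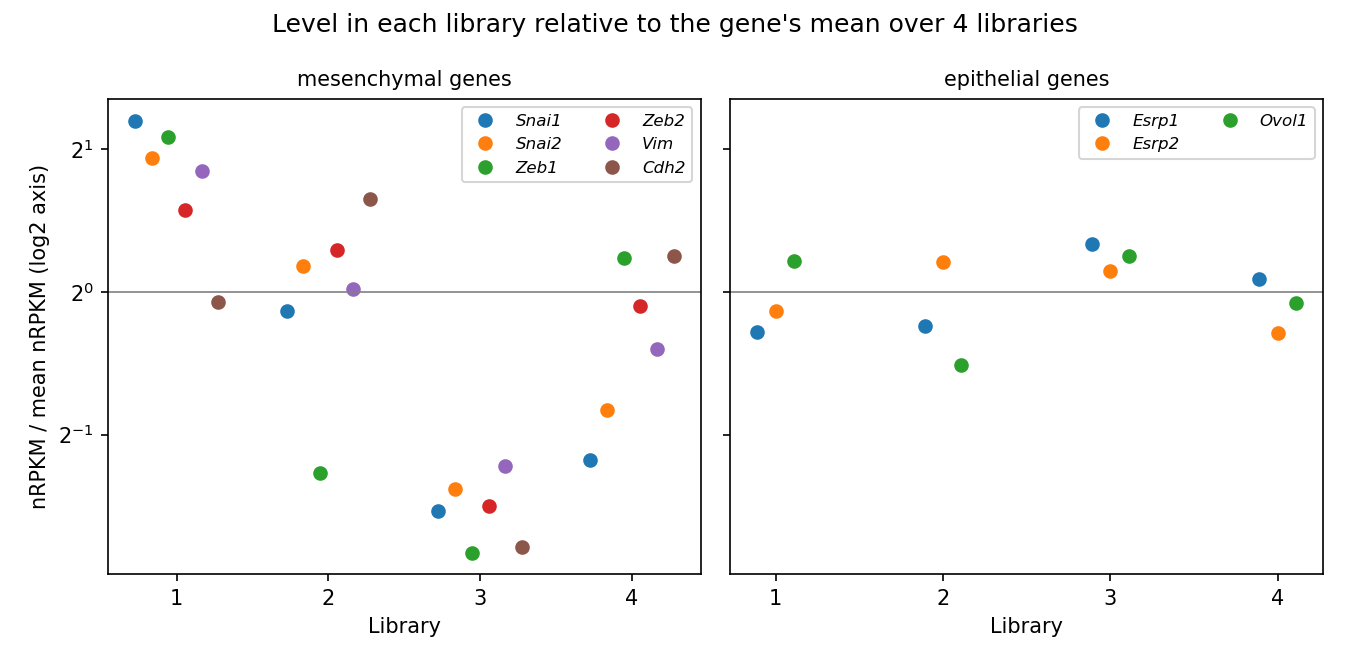
Level of each gene in each library divided by its mean over the 4 libraries (log2 axis), mesenchymal genes on the left and epithelial genes on the right; Twist1 is not drawn. In library 3 all 6 mesenchymal genes lie below their mean, in library 1 all but Cdh2 lie above it, and the highest-to-lowest ratios are 4.18 to 7.53 for these genes and 1.41 to 1.70 for the 3 epithelial genes.

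Other genes of the programme were read in the same way. Of 11 further EMT factor genes, 6 had a mean of at least 1 nRPKM, as did 42.4% of all genes, led by the chromatin protein gene Hmga2 (5.26 ± 3.40), the E protein gene Tcf3 (4.41 ± 0.747) and the forkhead gene Foxq1 (3.62 ± 1.06; SD, n = 4 each). No read was counted for Gsc. Hmga2 had 8.92, 6.96, 1.16 and 4.01 nRPKM in libraries 1 to 4, in the same order of libraries as Vim. Of the 7 tested genes of this list, 4 peaked in library 1 with a minimum in library 3, 3 passed an unadjusted p of 0.05 and none was called. The shares of all genes tested were 7.29%, 5.13% and 0.0152%. Hmga2 was marked by DESeq2 and called without the filter (adjusted p = 0.0133, edgeR), as were 0.471% and 0.321% of all genes in those settings. The fibroblast marker Dcn and the basal cell markers Krt5 and Krt14, described below, were marked and called in the same way.

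Of 17 further mesenchymal genes, 13 had a mean of at least 1 nRPKM, beside 42.4% of all genes. The matrix protein gene Sparc led with 471 ± 55.6, and its highest level, 553, was in library 3. The fibronectin gene Fn1 had 47.3, 27.9, 11.9 and 33.6 nRPKM in libraries 1 to 4 and the calcium-binding protein gene S100a4 had 20.4, 5.42, 0.670 and 4.43. Fn1 and S100a4 thus shared the extremes of Vim, and Sparc did not. Of the 15 tested genes, 8 peaked in library 1 with a minimum in library 3, 9 passed an unadjusted p of 0.05 and none was called by the edgeR test. Over all genes tested, these shares were 7.29%, 5.13% and 0.0152%. S100a4, which had too few reads in library 3 to be tested, was called without the filter (adjusted p = 0.00524, edgeR), as were 0.321% of all genes. Its mean of 7.74 nRPKM was 3.505 without library 1.

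The epithelial side was expressed throughout. All 16 epithelial junction genes had at least 1 nRPKM in every library, as did 38.8% of all genes. The list was led by Cdh1, the adhesion gene Epcam (54.1 ± 3.47) and the claudin gene Cldn3 (52.8 ± 16.9; SD, n = 4). In this list, 1 of 16 peaked in library 1 with a minimum in library 3. That gene, the claudin gene Cldn4, had 19.4, 10.04, 5.245 and 7.82 nRPKM in libraries 1 to 4. It was also the 1 of 16 that passed an unadjusted p of 0.05, with an adjusted p of 0.708 in edgeR. Of all genes tested, 7.29% had that order of extremes and 5.13% passed that unadjusted p. Of 12 further epithelial transcription factor genes, 11 had a mean of at least 1, beside 42.4% of all genes. The highest were Klf5 (38.3 ± 11.5), Ehf (11.7 ± 2.31) and Foxa2 (10.1 ± 2.30). Of the 11 tested, none passed an unadjusted p of 0.05 in edgeR. Epithelial keratin RNA was high as well, with Krt19 at 240 ± 75.1, Krt18 at 196 ± 71.7 and Krt7 at 165 ± 34.9 nRPKM.

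Splicing regulators other than the ESRP genes were expressed as well, with a list median of 14.4 nRPKM. Of 14, 13 had at least 1 nRPKM in every library, beside 38.8% of all genes. The highest were the muscleblind genes Mbnl1 (42.7 ± 5.36) and Mbnl2 (39.1 ± 3.39) and Hnrnpm (33.9 ± 9.30). None of the 14 passed an unadjusted p of 0.05 in edgeR, beside 5.13% of all genes tested. Beside 38.8% of all genes, 10 of 11 genes whose splicing the ESRP proteins are known to control had at least 1 nRPKM in every library. Among them the catenin gene Ctnnd1 had 79.2 ± 8.63, the growth factor receptor gene Fgfr2 55.6 ± 22.6 and the hyaluronan receptor gene Cd44 44.5 ± 2.08 nRPKM (SD, n = 4). Fgfr2 had 24.2 nRPKM in library 1 against 55.1 to 76.2 in the others, with an unadjusted p of 0.0388 in the edgeR test. Of the 11 genes, 2 passed an unadjusted p of 0.05 in edgeR, beside 5.13% of all genes tested. The tables give a value per gene, so the splice forms that ESRP proteins control were not measured. All 7 corepressor genes that SNAI and ZEB proteins recruit were present in every library, led by Hdac2 (26.7 ± 5.14), Kdm1a (13.3 ± 0.630) and Sin3a (12.6 ± 2.20). For the genes of the miR-200 and miR-205 microRNAs, which act on Zeb1 and Zeb2, 0 or 1 read was counted per library. Libraries of polyadenylated RNA do not capture mature microRNAs, so this says nothing of their level.

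**Figure D4:**
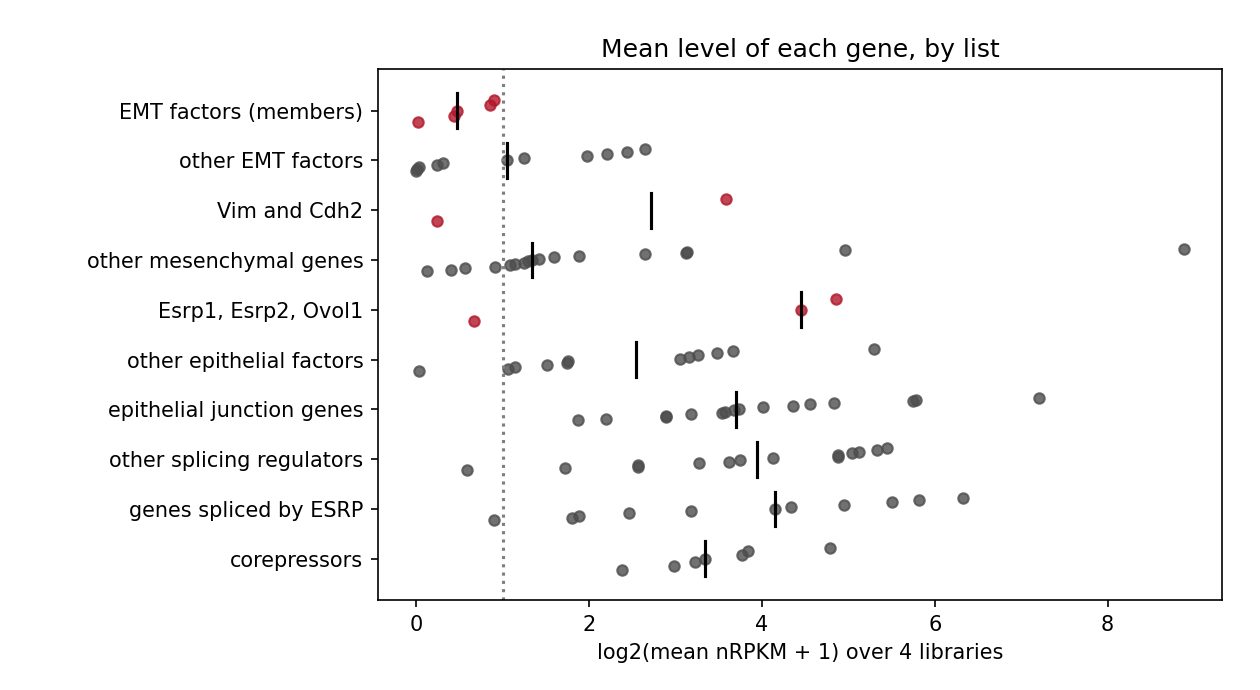
Mean level over 4 libraries, as log2(nRPKM + 1), of each gene in 10 lists; red points are the 10 genes described here, black ticks are list medians, and the dotted line marks 1 nRPKM. All 5 EMT factors lie left of the line, whereas the 16 junction genes and the 7 corepressors lie right of it.

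Markers of other cell types that the culture could hold were read beside these results. In bulk RNA, more cells of a type and more RNA per cell cannot be told apart. Fibroblast markers summed to 26.8, 16.01, 4.77 and 10.9 nRPKM in libraries 1 to 4, with 3 of 8 at a mean of at least 1, led by Dcn (5.52 ± 5.92, or 2.64 without library 1) and Col1a1 (4.59 ± 2.19), and Lum, Tcf21 and Mfap4 had no read in at least 1 library. Basal cell markers summed to 113, 64.4, 15.4 and 33.05, with 3 of 5 at a mean of at least 1, led by Krt5 (34.0 ± 27.3, or 21.8 without library 1) and Krt14 (19.3 ± 13.1). The summed level of the 5 EMT factors was 4.48, 2.44, 0.845 and 1.89. All 3 sums thus fell in the same order of libraries, from 1 through 2 and 4 to 3, and Vim did too. A mean of at least 1 nRPKM was reached by 42.4% of all genes. Each of the 4 tested fibroblast and 4 tested basal cell markers passed an unadjusted p of 0.05 in edgeR, beside 5.13% of all genes tested. None was called with the filter on low counts, beside 0.0152%. Dcn, Krt5 and Krt14 were marked by DESeq2 and called without the filter (adjusted p = 0.0009, 0.00398 and 0.0193, edgeR), beside 0.471% and 0.321% of all genes.

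The remaining marker lists differed in order and level. Leukocyte markers, of cells that the CD45 gate removes, summed to 70.2, 60.0, 28.0 and 17.3 nRPKM, with library 4 and not library 3 lowest. Of 9, 5 had a mean of at least 1, beside 42.4% of all genes. The highest were Cd68 (21.7 ± 10.98) and Fcer1g (8.64 ± 5.94), while Cd52 had no read in library 4. Ptprc, the gene of CD45, had 0.381, 0.696, 0.2445 and 0.368 nRPKM in libraries 1 to 4 and was lowest in library 3. Mesothelial markers summed to 19.3, 9.52, 7.22 and 8.80, the same order of libraries as Vim. Msln (10.9 ± 5.34) made up nearly all of this sum, with 18.7, 9.32, 6.98 and 8.44 nRPKM in libraries 1 to 4. Wt1, Gpm6a and Lrrn4 had means of 0.101, 0.119 and 0.115 nRPKM and did not have that order, and Upk3b had no read. Endothelial markers summed to 0.161 to 0.663 and smooth muscle and pericyte markers to 1.10 to 1.45, with no gene of these lists at a mean of 1 and the endothelial genes Cldn5, Emcn and Tie1 without a read in some libraries. Summed type II markers ran the other way, from 10008 in library 1 to 21789 in library 3, though only 2 of the 8 genes had their own extremes in those libraries. Summed type I markers ran from 448 to 591, with library 3 highest. Club cell markers ran from 150 in library 3 to 1059 in library 2. The part of fibroblast, basal, mesothelial or leukocyte RNA in the levels of Vim and the EMT factors was not tested.

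**Figure D5:**
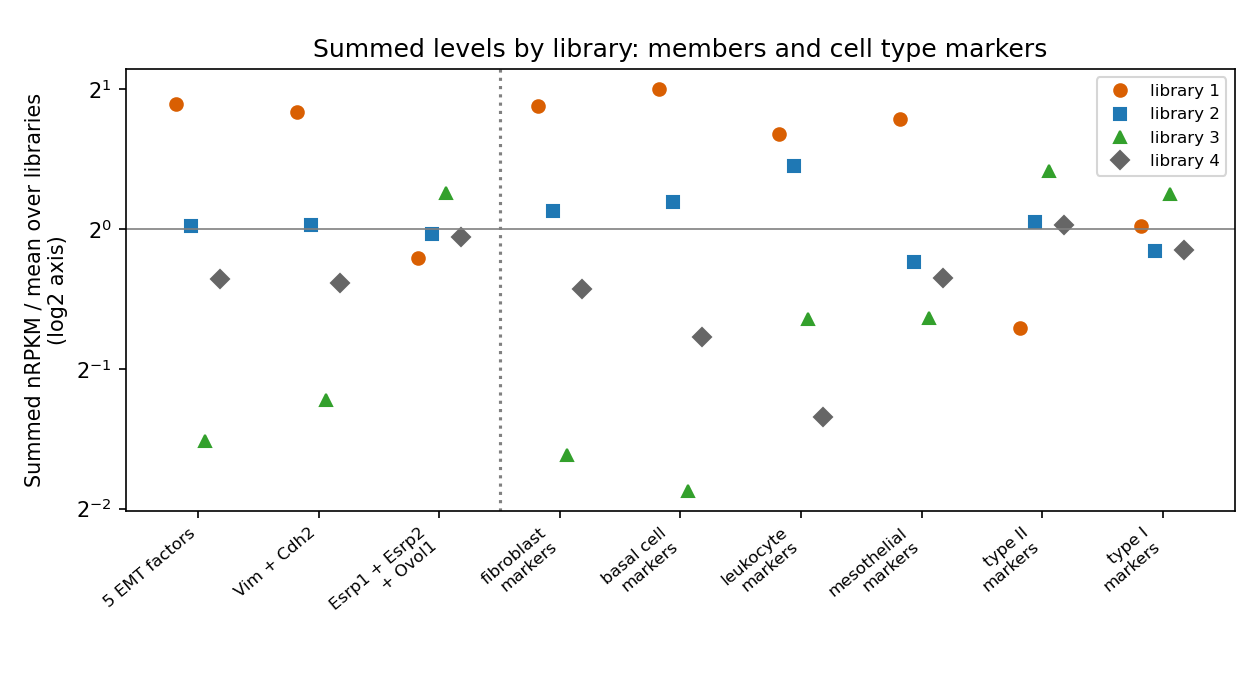
Summed nRPKM of each list in each library divided by the mean over libraries (log2 axis), for the 10 genes (left of the dotted line) and for cell type markers (right). The sums are highest in library 1 and lowest in library 3 for the EMT factors, Vim with Cdh2, and the fibroblast, basal and mesothelial markers (the last mostly Msln). The reverse holds for the sums of the epithelial genes and the type II markers, where 1 of 3 and 2 of 8 genes have that order singly.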

How the data were processed

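Per the labels' protocols, polyadenylated RNA was taken from sorted and cultured type II cells. Per the submitters' processing notes, GSNAP and mm9 were used; for versions, annotation and strand use the sources used here give nothing. Per the file headers, the authors deposited for each gene a count of uniquely aligned reads and a size-factor-adjusted RPKM, which equals the count times a factor per library and gene length. Symbols came from a RefSeq table of GRCm38.p6 by Entrez identifier, with 25035 of 28096 matched. Identifiers without a symbol took 2.48% to 3.71% of counts.

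Levels are the deposited nRPKM. Logarithms use a pseudocount of 1. A count of 0 allows 3 reads, or 0.221 to 0.247 CPM. Spread was tested with edgeR 4.0.16 in R 4.3.3 (TMM, filterByExpr, intercept only, adjusted p under 0.05), after checks on simulated counts; DESeq2 1.42.0 was an alternative. Differences of 8 gene pairs were tested by two-sided exact sign-flip permutation over 4 libraries and Benjamini-Hochberg adjustment. The genes of the pairs were chosen with earlier results known, so these p-values are descriptive. Shared words were taken from GENCODE M21 transcripts of GRCm38.

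The 10 genes, 10 companion lists and 9 marker lists were chosen with earlier results of these data known. The rule for named genes took all 10 genes, the pairs' genes, Epcam, the 3 highest of each companion list outside the microRNA genes and the 2 highest of each marker list. Of these, Sftpb, Bpifa1 and the 2 highest type I, endothelial, and smooth muscle and pericyte markers are not described above. Gsc, Lum, Tcf21, Mfap4, Upk3b, Wt1, Lrrn4, Cldn5, Emcn, Tie1, Cd52, Ptprc, Cldn4, Xist, Tsix, Eif2s3y and the overlapping genes were named after their values were seen.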

Additional observations from a re-analysis of the deposited data

Results flagged for a closer look

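Of 65 values checked (levels of named genes, pair differences and the epithelial minus mesenchymal difference), 2 had a library far from the other 3, where chance gives about 1 in 20. The log2 difference of Zeb2 and Zeb1 was 0.77 in library 2 against 0.21 to 0.26 in the others, with 159 reads of Zeb2 and 15 of Zeb1 in that library. Mbnl1, a splicing regulator, had 50.7 nRPKM in library 4 against 39.3 to 41.1 in the others.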

How the results depend on the processing

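The count of genes whose spread exceeded the trend was 2 with all libraries, 66 without the filter on low counts and 62 as DESeq2 dispersion outliers, and it ran from 0 to 6 when a library was left out (0 without library 2 or 3, with 640 and 619 genes at an unadjusted p under 0.05 in edgeR, and 6 without library 1). None of the 10 genes was called in any of these, as far as each had enough reads to be tested. The difference of Ovol2 and Ovol1 turned to -0.044 in CPM, without correction for length; the other 7 pairs kept their direction with a pseudocount of 0.1, in CPM and without each library. For Snai2 and Snai1 and for Zeb2 and Zeb1 the size grew more than 2-fold with a pseudocount of 0.1 or in CPM, and for Esrp1 and Esrp2 in CPM. The epithelial minus mesenchymal difference of 2.42 moved to 3.59 with a pseudocount of 0.1, to 3.21 in CPM and to 1.20 with only Esrp1, Esrp2 and Vim, and ran from 2.24 to 2.58 without each library. The number of genes at the level threshold in every library stayed 3 at 0.5 nRPKM. Chosen after seeing the data, the count of 4 tested genes highest in library 1 and lowest in library 3 was the same in CPM and with counts scaled outside mitochondrial ribosomal RNA. Also chosen after seeing the data, the mean level of each named gene was computed without each library: those of Dcn, Krt5, S100a4, Snai1 and Zeb1 fell by more than 1.5 times without library 1 and that of Scgb1a1, a club cell marker, from 349.9 to 173 without library 2, while Twist1 lost its single read without library 4. Low depth limits Snai1, Cdh2, Ovol1 and Twist1, which rest on 43, 60, 129 and 1 reads in all. No paired analysis was possible because there is a single group, so no groups could be paired, and its labels carry no replicate numbers.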
